A study of Mus musculus with 8 samples.

Results

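The regions described here are 9681 FAIRE peaks of mouse granulosa cells that were listed 4 h after the ovulatory signal and not before it, and that held no peak of the nuclear receptor LRH-1 at either time. They were chosen by position alone, from the authors' peak lists: a region entered if it overlapped no FAIRE peak before the signal and no LRH-1 peak of either list by even 1 bp. They made up 42.5% of the 22791 FAIRE peaks after the signal (exact binomial 95% interval 41.8 to 43.1). The overlaps themselves are therefore a description of the rule, and no test rests on them. Chromatin opening here means that a region entered the FAIRE list, since signal below a list's floor cannot be seen.

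FAIRE, formaldehyde-assisted isolation of regulatory elements, recovers DNA that is poor in nucleosomes, such as active promoters and enhancers. In the growing follicle, granulosa cells surround the oocyte and make oestradiol. The surge of luteinising hormone acts through its receptor and cyclic AMP, ends that programme and starts cumulus expansion, rupture of the follicle and the change into luteal cells. LRH-1 (NR5A2) is needed in granulosa cells for ovulation in mice, and so are other factors that the surge induces, among them the progesterone receptor and C/EBPβ. Binding of those other factors was not measured in the lists used here.

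Both FAIRE lists came from C57BL/6 mice labelled LRH-1 +/+, aged 22 to 25 days, which had received 5 IU of equine chorionic gonadotropin (eCG) to grow follicles. The list after the signal is from granulosa cells punctured out of the ovary 4 h after 5 IU of human chorionic gonadotropin (hCG), given 44 h after eCG as a stand-in for the surge. The list before it is from cells taken at 0 h. LRH-1 was mapped by chromatin immunoprecipitation at the same 2 times in mice of the same strain and genotype, and although the sample labels name granulosa cells, the protocol names fixed ovarian tissue (n = 5 per condition). LRH-1 peaks can therefore belong to other ovarian cells. An LRH-1 site of granulosa cells may also be missing from the lists. The label of each sample states 2 replicates but each time has 1 list, so differences between sets of peaks have no replicate check and no test over samples was possible. Intervals below are exact binomial ones at 95%, cover counting error only and treat neighbouring peaks as independent, which they are not.

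The lists held 22791 FAIRE peaks after hCG and 21431 before it, and 9413 LRH-1 peaks after hCG and 5886 before it. Of the FAIRE peaks after hCG, 11256 (49.4%) overlapped none before hCG, and of those before hCG, 9910 (46.2%) overlapped none after it. Each FAIRE peak carries a score, the authors' own value, which ranks peaks within a list and starts at 40 in both. Positions are in mouse build mm9, per the submitters' processing notes. No gene annotation or sequence of that build was used here, so regions are given by position only, and genes, exons and motifs within them were not analysed here.

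Most FAIRE peaks that were new after hCG had no LRH-1 peak. Of the 11256 after-only peaks, 9681 (86.0%, interval 85.4 to 86.6) held none, against 8927 of the 11535 after-hCG peaks that overlapped one before hCG (77.4%, interval 76.6 to 78.2). Among peaks seen only before hCG, 8093 of 9910 (81.7%, interval 80.9 to 82.4) held none. The after-only regions without LRH-1 outnumbered the before-only regions without LRH-1 on 19 of 20 chromosomes, the exception being chromosome X. They are the larger set as a whole, at 9681 against 8093, so higher counts on most chromosomes are no separate result. The shares above follow from the rule that made the sets and are given without a test.

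The regions were mostly weak peaks. Their score had a median of 59.3, with quartiles at 47.5 and 84.2 and a highest value of 438. After-only peaks with LRH-1 had a median of 79.7, peaks of both times without LRH-1 one of 83.2, and peaks of both times with LRH-1 one of 95.6. The after-only regions without LRH-1 thus lay nearest the floor of the list among the 4 sets. In the list before hCG, before-only peaks without LRH-1 had a lower median still, 55.2, with quartiles at 46.0 and 71.1. Low scores were thus not particular to the regions. Of FAIRE peaks after hCG above the list's median score, 3414 were such regions, and their median score was 98.0.

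**Figure D1:**
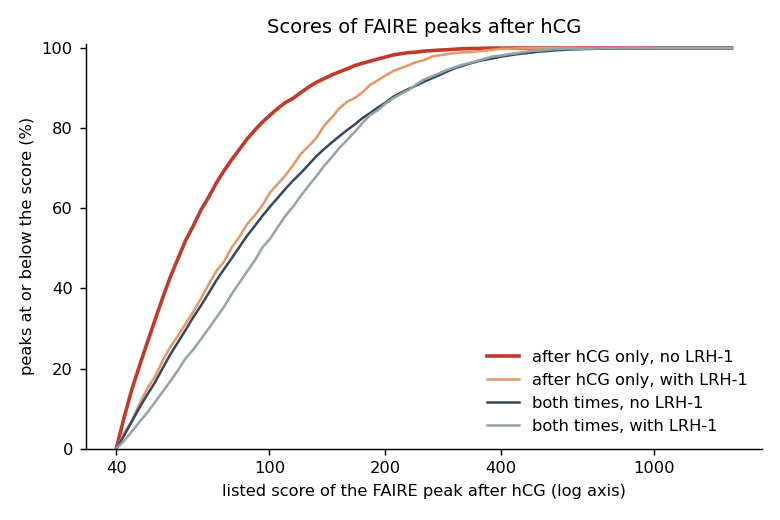
Cumulative share of FAIRE peaks after hCG (vertical axis, percent) at or below a listed score (horizontal axis, logarithmic) in 4 sets. The curve of after-only peaks without LRH-1 rises first, with a median of 59.3, against 79.7 for after-only peaks with LRH-1 and 83.2 and 95.6 for peaks of both times without and with LRH-1.

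When the list after hCG was divided by score into 10 groups of nearly equal size, the regions made up 62.9% of the lowest group (interval 60.9 to 64.9) and 13.0% of the highest (interval 11.7 to 14.5), with a lower share at each step between. None was among the 100 best-scoring peaks, 68 were among the best 1000, and the best of them stood at rank 176. LRH-1 was also less often absent from stronger new peaks. Among after-only peaks, those without LRH-1 were 92.6% in the lowest group (interval 91.2 to 93.9) and 68.3% in the highest (interval 63.7 to 72.6). Even in the highest group, 297 of 435 after-only peaks held no LRH-1 peak.

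**Figure D2:**
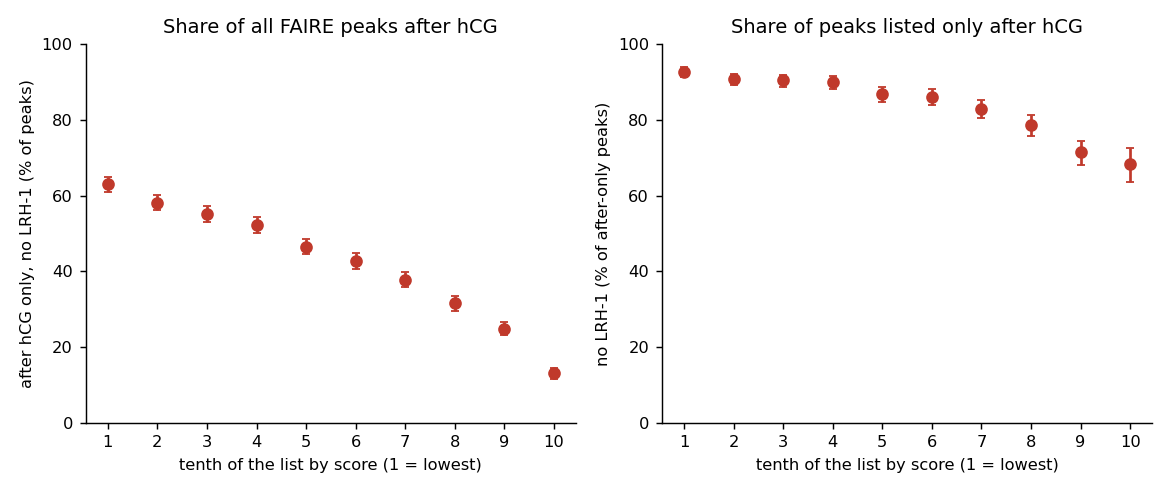
Share of regions in 10 groups of nearly equal size of the FAIRE list after hCG, ordered by score from the lowest (1) to the highest (10), with exact binomial 95% intervals. Left, as a share of all peaks of the group, which runs from 62.9% to 13.0%; right, as a share of its after-only peaks, which runs from 92.6% to 68.3%.

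The width of the regions, which the rule did not use, was 866 bp at the median, with quartiles at 738 and 967 bp. Peaks of both times without LRH-1 had a median of 901 bp and after-only peaks with LRH-1 one of 935 bp. A wider peak overlaps other peaks more easily, so width and membership are linked. Stronger regions were wider (Spearman's rho between score and width 0.44 over 9681 regions, given as a description). At like score the direction of the difference was not uniform. In 5 bands of score with bounds at 50, 70, 100 and 150, chosen after the scores had been seen, the median width was 775, 858, 918, 975 and 1043 bp for the regions, against 802, 862, 913, 954 and 1005 bp for peaks of both times without LRH-1. The regions were thus the narrower peaks in the lower bands and the wider ones above a score of 70. The widest regions lay on chromosome 4 from 146764044 to 146768839 (4796 bp, score 50.7), on chromosome 13 from 13002179 to 13005578 (3400 bp, score 40.1) and on chromosome 11 from 86393475 to 86396573 (3099 bp, score 124). Breadth did not go with strength in the first pair, whose scores lay below the median of all regions.

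The 10 best-scoring regions were spread over 9 chromosomes. The first lay on chromosome 4 from 64903342 to 64904400, with a score of 438. Its nearest FAIRE peak before hCG was 74558 bp away with a score of 45.0, and its nearest LRH-1 peak, one of the list after hCG, was 172137 bp away. It was thus isolated from both kinds of peak. The second lay on chromosome 18 from 70747137 to 70748343, with a score of 437, and had LRH-1 peaks of both times at 17989 bp (after hCG) and 17488 bp (before hCG). The next, on chromosome 2 from 11350860 to 11351870, scored 417 and lay 14300 bp from a FAIRE peak before hCG. These 3 differ in their surroundings although their scores are close.

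The other 7 of these 10 scored between 354 and 382. They lay on chromosome 16 at 10754241 to 10755353, chromosome 5 at 88051172 to 88052526, chromosome 6 at 99396608 to 99397648, chromosome 12 at 113005898 to 113007347, chromosome 18 at 12769297 to 12770383, chromosome 11 at 49624222 to 49625448 and chromosome 17 at 84284165 to 84285260. Of all 10, none had an LRH-1 peak within 10 kb, where the share over all regions was 19.9%. It was 21.0% among the 599 regions that scored above 150, so these 10 do not stand for strong regions as a whole. For the 10, the gap to the nearest LRH-1 peak ran from 13343 to 172137 bp. These LRH-1 peaks were 3.75-fold to 6.59-fold enriched by the authors' value. The gap to the nearest FAIRE peak before hCG ran from 3747 bp, on chromosome 11, to 226978 bp, on chromosome 5. That neighbour had a score under 50 for 8 of the 10 regions, and scores of 70.35 on chromosome 17 and 75.9 on chromosome 6 for the other two, where the median of the list before hCG is 70.5.

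At the border of the rule, a few bases decided whether a peak was included. Just inside, the regions closest to a FAIRE peak before hCG lay 5 bp from it on chromosome 4 (119088739 to 119089420, score 80.97), 8 bp on chromosome 8 (18668452 to 18669441, score 68.2) and 15 bp on chromosome 8 (58008818 to 58009583, score 46.9). Just outside, the smallest overlaps were 1 bp on chromosome 1 (194710944 to 194711919, score 90.8), 15 bp on chromosome 2 (30775455 to 30776332, score 44.1) and 19 bp on chromosome 6 (143124404 to 143125155, score 42.0). On the side of LRH-1, after-only peaks left out for the smallest overlaps shared 2 bp (chromosome 15, score 62.8), 5 bp (chromosome 3, score 48.9) and 13 bp (chromosome 1, score 93.4) with an LRH-1 peak. Scores on both sides thus covered a similar range. Such near misses were few: 428 of 9681 regions (4.42%, interval 4.02 to 4.85) lay within 1 kb of a FAIRE peak before hCG, and 263 (2.72%, interval 2.40 to 3.06) within 1 kb of an LRH-1 peak.

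Most regions had no FAIRE peak before hCG within 10 kb, but 72.8% had one within 50 kb and 87.8% within 100 kb. The median gap to the nearest FAIRE peak before hCG was 21922 bp, and 29.6% of regions had one within 10 kb (interval 28.7 to 30.5). Before-only peaks without LRH-1, measured to the list after hCG, had a median gap of 24442 bp and a share of 27.8% (interval 26.8 to 28.8). For after-only peaks with LRH-1 the median was 19940 bp and the share 31.4% (interval 29.1 to 33.8). Both intervals overlap that of the regions. With only the better-scoring FAIRE peaks before hCG used, split at the median score, the set grew to 12715 regions and that share was 16.0%. The share of disappearing peaks among the neighbours was close to their share of the list: the nearest FAIRE peak before hCG was a before-only one for 46.9% of regions (interval 45.9 to 47.9), and before-only peaks make up 46.2% of that list. The farthest region, on chromosome 1 from 28104081 to 28105248 with a score of 67.4, was 2219881 bp from any FAIRE peak before hCG and 2289136 bp from any LRH-1 peak. The next 4 were those from 121395292 to 121396009 and from 122066823 to 122067554 of chromosome X, from 14797557 to 14798361 of chromosome 15 and from 80162931 to 80163655 of chromosome 4, with gaps of 1731366 to 1883798 bp and scores of 40.4 to 51.9. All of these 4 scored below the median of the regions.

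LRH-1 peaks, absent from the regions by definition, lay within 10 kb of a minority of them, and this minority was larger than in both sets it was compared with. All 3 sets had first lost their peaks that overlap LRH-1, and to unlike extents. What remained was 86.0% of after-only, 77.4% of both-times and 81.7% of before-only peaks. The comparison therefore holds only for peaks left by this filter, and does not say which peaks lay nearer LRH-1 before it. The median gap to the nearest LRH-1 peak of either time was 42432 bp, against 44072 bp for peaks of both times without LRH-1 and 53249 bp for before-only peaks without LRH-1. Within 10 kb the shares were 19.9% of the regions (interval 19.1 to 20.7), 18.0% of peaks of both times (interval 17.2 to 18.8) and 16.4% of before-only peaks (interval 15.6 to 17.2). The regions had the higher share on 16 of 20 chromosomes against peaks of both times, and also on 16 of 20 against before-only peaks. With LRH-1 peaks of −log10 q of at least 10 only, 8.89% of the regions then defined had one within 10 kb. Against peaks of both times the order was the same within 50 kb, at 54.6% of the regions (interval 53.6 to 55.6) and 53.8% (interval 52.8 to 54.8), and the other way round within 1 kb and within 100 kb, with overlapping intervals at all 3 distances. Within 1 kb it was 2.72% of the regions against 3.26% (interval 2.90 to 3.65), and within 100 kb 71.1% (interval 70.2 to 72.1) against 72.1% (interval 71.2 to 73.0).

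The share near LRH-1 varied little with the score of the regions. In the same 5 bands of score, the share of regions with LRH-1 within 10 kb was 19.5%, 19.0%, 21.1%, 20.9% and 21.0%. Peaks of both times without LRH-1 stood at 15.8%, 16.0%, 18.3%, 19.9% and 19.99% in the same bands. The intervals were apart in the lowest band only, at 18.1 to 21.0 for the regions and 14.0 to 17.8 for peaks of both times.

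The kind of LRH-1 site nearby was compared as well. Gained LRH-1 peaks (listed only after hCG) lay within 10 kb of 10.8% of the regions (interval 10.2 to 11.4), against 9.50% of peaks of both times without LRH-1 (interval 8.90 to 10.1) and 8.03% of before-only peaks without LRH-1 (interval 7.45 to 8.65). Lost LRH-1 peaks (listed only before hCG) lay within 10 kb of 3.56% of the regions (interval 3.20 to 3.95), 2.99% of peaks of both times (interval 2.65 to 3.37) and 3.19% of before-only peaks (interval 2.82 to 3.59). Gained sites thus lay near a larger share of the regions than of before-only peaks, while for lost sites the intervals overlapped. These shares too depend on the removal of peaks that overlap LRH-1. Since gained peaks are 2.81 times as many as lost ones, the ratio of both shares is read against that number, and it was 3.03 for the regions, 3.18 for peaks of both times and 2.52 for before-only peaks. Seen from LRH-1, 18.0% of gained (interval 17.0 to 19.0), 18.5% of persistent (interval 17.3 to 19.8) and 16.6% of lost peaks (interval 15.0 to 18.3) had a region within 10 kb. The intervals of these 3 shares overlap.

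At the 5 regions nearest to LRH-1, the gap was at most 18 bp. It was 1 bp on chromosome 9 (77561475 to 77562538, score 96.0), 5 bp on chromosome 14 (99357353 to 99358242, score 46.1), 8 bp on chromosome 1 (193116083 to 193116670, score 57.3), 8 bp on chromosome 16 (24507672 to 24508729, score 86.9) and 18 bp on chromosome 1 (50834211 to 50835084, score 94.9). The neighbour was a peak of the list after hCG on chromosomes 9 and 16 and at the first place on chromosome 1, and of the list before hCG at the others. These regions count as free of LRH-1 only by the limits of both peaks as listed.

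**Figure D3:**
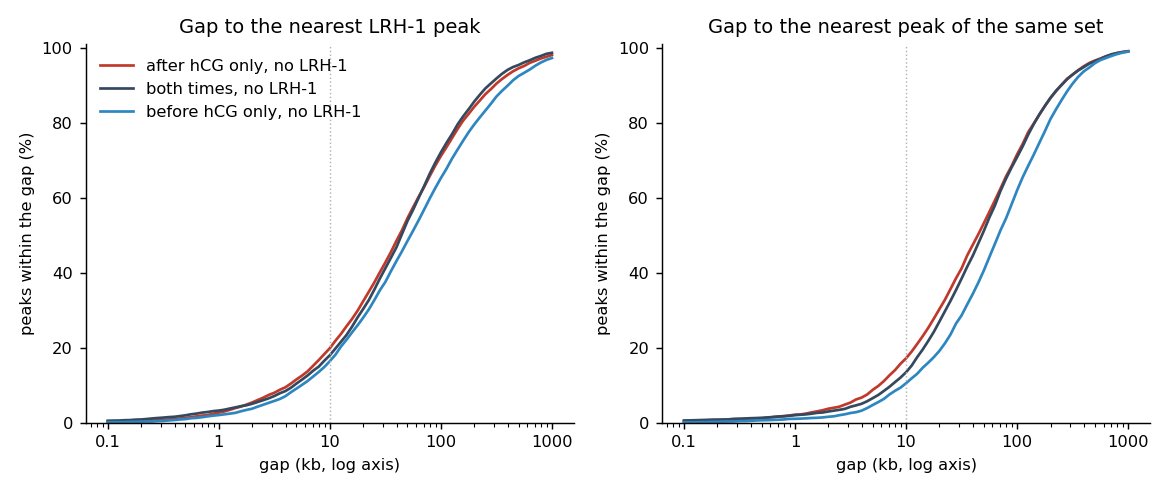
Cumulative share of peaks (vertical axis, percent) with a neighbour within a gap (horizontal axis, kb, logarithmic) for after-only, both-times and before-only FAIRE peaks without LRH-1. Left, the nearest LRH-1 peak, where 19.9%, 18.0% and 16.4% had one within 10 kb (dotted line); right, the nearest peak of the same set, where 17.2%, 13.5% and 10.6% had one.

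Within 10 kb, the regions had a neighbour of their own set more often than the peaks of the other sets did. Against peaks of both times without LRH-1 the intervals overlapped within 1, 50 and 100 kb. The shares were 2.17% and 2.03% within 1 kb, 53.1% and 51.1% within 50 kb, and 71.6% and 70.9% within 100 kb. Before-only peaks without LRH-1 stood lower at all 3, at 1.06%, 40.5% and 62.0%. Another region was found within 10 kb of 17.2% of them (interval 16.5 to 18.0), whereas a peak of the same set was found within 10 kb of 13.5% of peaks of both times without LRH-1 (interval 12.8 to 14.2) and of 10.6% of before-only peaks without LRH-1 (interval 9.89 to 11.2). A larger set gives a larger share, so the sets were brought to 8093 peaks each by computing the share expected over all draws of that size. The shares were then 14.6% for the regions, 12.3% for peaks of both times and 10.6% for before-only peaks. The order was the same as before, and the regions had the higher observed share than peaks of both times on 17 of 20 chromosomes. Among the 3414 regions of the better-scoring peaks, a set that is smaller by construction, the share was 8.38%.

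This closeness was greater among stronger regions. In the 5 bands of score, 15.1%, 16.3%, 18.2%, 22.0% and 20.5% of the regions had another region within 10 kb. Peaks of both times without LRH-1 stood at 13.2%, 13.3%, 13.3%, 13.9% and 13.7%, without such a gradient. The intervals of both sets were apart in 4 of the 5 bands, the lowest band being the exception. These shares were not brought to equal set size, which favours the regions as the larger set. The kind of neighbour was compared as well. The nearest other FAIRE peak after hCG was itself an after-only one for 53.2% of the regions (interval 52.2 to 54.2), for 44.8% of peaks of both times without LRH-1 (interval 43.8 to 45.8), and 49.4% of the list is after-only. After-only peaks with LRH-1 stood at 54.3% (interval 51.9 to 56.8), which overlaps the interval of the regions, and peaks of both times with LRH-1 at 50.8% (interval 48.9 to 52.8). Where that neighbour lay within 10 kb, it was after-only for 53.3% of the regions (interval 51.5 to 55.0), 57.6% of after-only peaks with LRH-1 (interval 53.4 to 61.7), 56.1% of peaks of both times with LRH-1 (interval 52.9 to 59.3) and 47.1% of peaks of both times without LRH-1 (interval 45.2 to 49.0). At this range the share of the regions was above that of peaks of both times without LRH-1 and below those of both sets with LRH-1, with intervals that overlap in the comparisons with those sets.

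Joined at gaps of up to 10 kb, the regions formed 97 chains of 3 or more that held 301 regions (3.11%), against 58 chains with 183 peaks (2.05%) among peaks of both times and 25 chains with 80 peaks (0.989%) among before-only peaks, all without LRH-1. These counts were not brought to equal set size, and a larger set forms more chains. Chains of 4 or more numbered 9 among the regions, 7 among peaks of both times and 4 among before-only peaks, and the longest held 5, 6 and 5 peaks in the same order. The longest chain of regions held 5, on chromosome 7 from 86390984 to 86425321, with scores of 49.7, 119, 55.8, 44.8 and 43.1 along the chromosome. A FAIRE peak of both times lay among them, at 86417347 to 86418440 after hCG, with a score of 285 after hCG and 491 before it. The chain also held an after-only peak with LRH-1 (86403910 to 86404695, score 98.9). New peaks thus stood here around one that was open at both times.

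Another 8 chains held 4 regions each. On chromosome 16 the chain from 38681072 to 38700853 had scores of 292, 61.8, 162 and 44.1, no FAIRE peak before hCG, and 1 LRH-1 peak after hCG between the regions of score 162 and 44.1. On chromosome 14 the chain from 106061757 to 106084112 had scores of 45.65, 249, 271 and 92.0, with a before-only FAIRE peak of score 72.2 that lay 334 bp from the region of score 271. The other chain of chromosome 14, from 70495557 to 70512288, held no peak of any other list. In 5 of the 8 chains no FAIRE peak before hCG, no LRH-1 peak and no other FAIRE peak after hCG lay between the first and the last region: those on chromosomes 5, 9 and 13, that from 69992513 to 70012644 on chromosome 11, and the one just named.

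**Figure D4:**
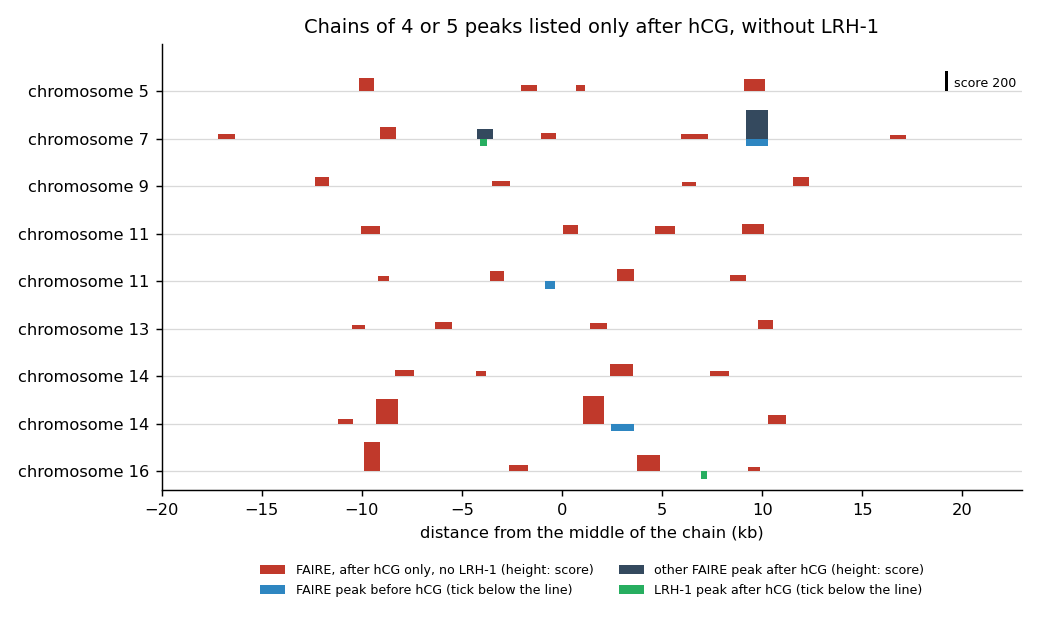
The 9 chains of 4 or 5 regions, one per line, by distance from the middle of the chain in kb. Red bars are the regions and dark bars other FAIRE peaks after hCG, with the height giving the score (black bar: 200), and ticks below the line are FAIRE peaks before hCG (blue) and LRH-1 peaks after hCG (green); most chains hold regions only.

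On a larger scale the regions were spread over the genome. Of 2398 windows of 1 Mb with any FAIRE peak, 2101 held at least 1 region, and 193 held 10 or more, while 69 windows held 10 or more before-only peaks without LRH-1. The regions outnumbered before-only peaks without LRH-1 in 1136 windows, were fewer in 880 and equal in 382. These counts were not brought to equal set size either, and the regions are the larger set. The window with the most regions, on chromosome 13 from 98000001 to 99000000, held 20 of them against 7 before-only peaks without LRH-1. Their scores there ran from 42.3 to 150, with a median of 60.4, close to that of all regions. The next windows held 19 each: chromosome 5 from 91000001 to 92000000, chromosome 7 from 119000001 to 120000000, and chromosome 14 from 21000001 to 22000000 and from 70000001 to 71000000, the last of which holds the chain with no peak of any other list. LRH-1 differed between these windows, with 10 LRH-1 peaks after hCG and 0 before it on chromosome 7, and 5 after hCG and 3 before it on chromosome 5.

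By chromosome, the regions made up between 36.1% (chromosome 11, interval 33.6 to 38.6) and 49.6% (chromosome X, interval 44.5 to 54.8) of the FAIRE peaks after hCG. The interval of X also holds the shares of other chromosomes, such as 14 (48.1%) and 18 (48.0%). Among FAIRE peaks after hCG above the median score, the share on X was 29.3% and that on chromosome 11 was 25.1%. Chromosome X stood apart in other ways. It held few peaks of any kind, 379 FAIRE peaks after hCG (1.66% of the list) and 95 LRH-1 peaks after hCG (1.01%). Of its 195 after-only FAIRE peaks, 7 held LRH-1 (3.59%, interval 1.46 to 7.26), against 10.8% to 17.0% on the 19 other chromosomes. Among peaks of both times the share with LRH-1 was also lowest on X, at 11.96% (interval 7.65 to 17.5), against 17.5% to 27.4% elsewhere. The lower share of LRH-1 on X was thus not limited to the new peaks. Its 188 regions had the lowest median score of any chromosome, 53.5, and 4.26% of them had another region within 10 kb, against 13.9% to 23.5% elsewhere. Peaks of both times without LRH-1 on X did not show this sparseness, at 11.7%.

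**Figure D5:**
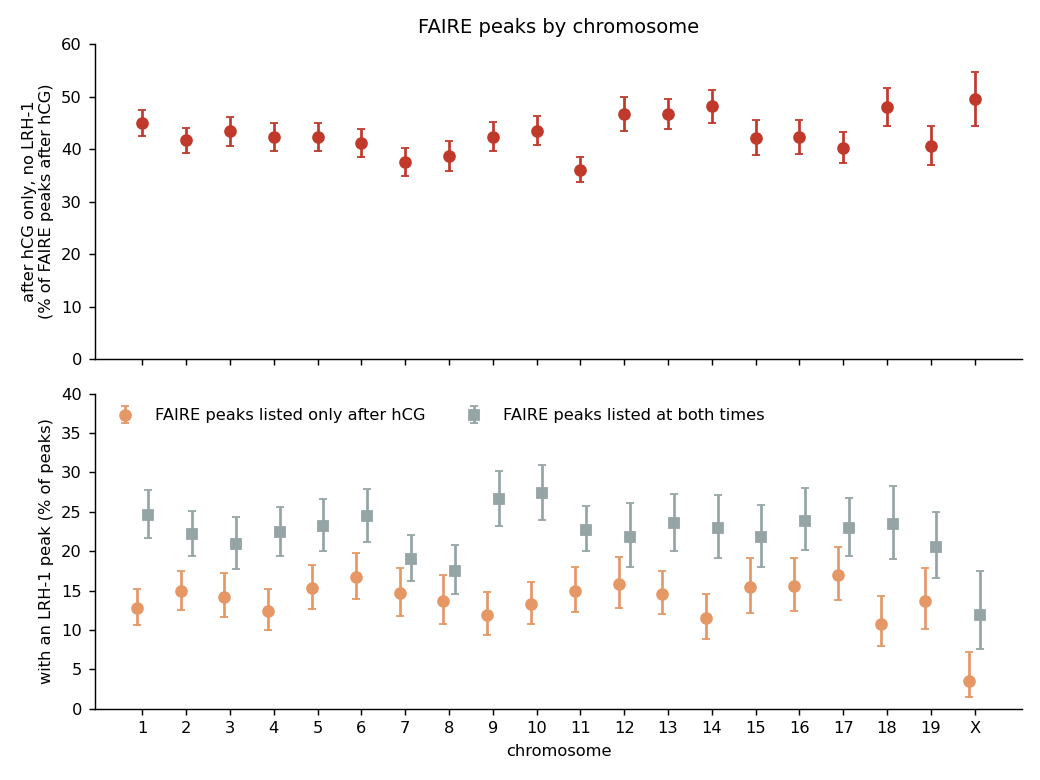
Top, after-only FAIRE peaks without LRH-1 as a share of the FAIRE peaks after hCG of each chromosome; bottom, share of peaks with LRH-1 among after-only peaks (circles) and peaks of both times (squares), with exact binomial 95% intervals. Chromosome X has the highest share in the top panel, 49.6%, with an interval that also holds the shares of other chromosomes. It has the lowest shares in the bottom panel, 3.59% and 11.96%.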

How the data were processed

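Per the submitters' processing notes, BWA and mm9 were used for FAIRE and ChIP, and MACS2 2.1.0 and bedtools for ChIP. The deposited FAIRE lists give a score per peak, and the names begin with MACS, but how the score was computed and whether replicates were pooled are not stated by any source used here. The deposited LRH-1 lists give a score, a fold enrichment ratio, −log10 of the p-value and −log10 of the q-value. Build mm9 rests on the notes; peaks extend past the final gene in a GRCm38 table on 10 of 20 chromosomes. Read depths of the lists were not used here. The RNA tables were not used, since no table here links their transcripts to mm9 regions.

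In Python 3.11.15 (numpy 2.4.6, pandas 2.3.3, scipy 1.17.1), peaks overlapped if they shared 1 bp. Gaps run from edge to edge, windows were assigned by peak midpoint, and starts count from 1. The code was tested on simulated lists. The regions named were the 10 best-scoring, the 5 nearest to LRH-1, the 5 farthest from a FAIRE peak before hCG, the densest windows (the 4 tied for second are all given) and those at the border of the rule. The widest regions and the chains were chosen after their values were seen. The regions, sets and measures were chosen with earlier results of these data known.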

Additional observations from a re-analysis of the deposited data

How the results depend on the processing

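The number of regions stayed within 1.5 times of 9681 in 7 of 9 other settings and was 3414 when FAIRE peaks after hCG had to exceed the list's median score and 3785 with the best 10000 peaks of both lists. In these 2 settings 79.2% and 76.4% of after-only peaks had no LRH-1, the median score was 98.0 and 105.85, the median width 956 and 961 bp, the share within 10 kb of another region 8.38% and 8.43%, and the densest window held 10 and 12 regions. With both lists at 10000, 15.2% lay within 10 kb of a FAIRE peak before hCG. These sets hold fewer peaks by construction.

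Where an overlap had to cover at least 50% of the FAIRE peak after hCG, 97.8% of after-only peaks had no LRH-1 overlap of that extent. The median LRH-1 peak is 316 bp wide after hCG and 287 bp before it. Few could cover 50% of a FAIRE peak, so this share was largely set by the widths. Peaks that hold an LRH-1 peak with less cover stayed in the set. The median score was then 61.3 and the width 878 bp. The shares near LRH-1, a FAIRE peak before hCG and another region were 29.9%, 30.9% and 19.9%. A peak that overlapped an LRH-1 peak or a FAIRE peak before hCG with less cover was itself counted as near it. The shares near LRH-1 and near a FAIRE peak before hCG thus include direct overlaps. They cannot be compared with those of the main setting, which excluded such overlaps. Where a gap of 500 bp counted as overlap, 85.0% had no LRH-1, and the shares near LRH-1 and a FAIRE peak before hCG were 18.5% and 27.7%. At 1000 bp the values were 84.3%, 17.2% and 26.1%, and 16.3% lay near another region. With only the better-scoring FAIRE peaks before hCG used, split at the median score, they were 84.9%, 18.9% and 16.0%, with 20.6% near another region. With LRH-1 peaks of −log10 q of at least 5, 87.4% had no LRH-1 and 18.1% lay near it. At 10 or more, the values were 94.4% and 8.89%, the median score 60.35, the width 872 bp, and 19.0% lay near another region.

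Within 1, 50 and 100 kb, 2.72%, 54.6% and 71.1% of regions had an LRH-1 peak, and 4.42%, 72.8% and 87.8% a FAIRE peak before hCG. Within 5 and 50 kb, 8.70% and 53.1% had another region, and at a gap slightly wider than 10 kb 20.9% had one. At the size of the smallest set, an alternative chosen after seeing the data, that share was 14.6%. Leaving out chromosome X, also chosen after seeing the data, moved no value beyond its interval and no count by over 1.5 times. Motif, gene start and RNA alternatives were not run, as no mm9 sequence or annotation was used here. No paired analysis was possible because each time and assay has 1 list.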
